A study of Homo sapiens with 3 samples.

Results

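The SR splicing factors, as taken here, are the 10 genes SRSF1, SRSF2, SRSF3, SRSF4, SRSF5, SRSF6, SRSF7, SRSF9, SRSF10 and SRSF11. They were chosen by symbol, after the RefSeq accession that the array design gives for each probe had been matched to its gene, and every probe of a member was kept. Of the 34041 probes with a value, 25705 could be named, for 19699 genes, and 19 of these probes belonged to the 10 members. SRSF1, SRSF4 and SRSF9 had 1 probe each, and the other 7 members had more than 1.

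The RNA came from PANC-1, an established human pancreatic carcinoma cell line, in a study of cantharidin, a beetle toxin that inhibits protein phosphatase 2A (PP2A). The groups were control cells, which received neither agent, cells exposed to cantharidin and cells exposed to okadaic acid, a marine toxin that also inhibits PP2A. The labels give 20 μM and 24 h for each agent, and no other source used here was found to state the okadaic acid dose, so its value rests on the label alone. Gene expression was measured on 3 Agilent 1-colour arrays, 1 per group, so there were no replicate cultures, no difference could be tested and no p-value is given.

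SR proteins carry RNA recognition motifs and a tail rich in arginine and serine. They bind exonic enhancer sequences, recruit the spliceosome to nearby splice sites, and several of them also help to export spliced mRNA. Their tails are phosphorylated by the SRPK and CLK kinases and dephosphorylated by the phosphatases PP1 and PP2A, and many SR genes hold a conserved poison exon whose inclusion sends the transcript to nonsense-mediated decay.

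Differences and folds use spot intensities processed by the scanner software, set on a log2 scale relative to the 75th percentile of each array. That percentile lay at an intensity of 784 (control), 713 (cantharidin) and 936 (okadaic acid). What a probe read is given as its intensity before this scaling, so readings and scaled differences can point different ways. Differences were called higher or lower at 1.5-fold, a log2 difference of 0.585, provided that the scanner software had marked the probe as well above background on either of the arrays compared. All 19 member probes were well above background on all 3 arrays, and none was saturated. The error given with a difference is the spot noise, combined over the 2 arrays compared. It comes from probes of like brightness with repeated spots. The median of their spot SDs was divided by the square root of the number of spots used for the probe. For the 18 member probes with 1 spot it is that median itself. It is too small for a probe noisier than most of like brightness. The error was 0.022 to 0.25 log2 units for the member probes and covers neither labelling nor the spread between cultures. The 7 markers chosen for the PANC-1 line (KRT7, KRT8, KRT18, KRT19, SOX9, EPCAM and VIM) were well above background on all arrays. Of 6 markers of cells that the culture should lack, ALB and PECAM1 were not, while PTPRC, CD3E, INS and PRSS1 were, at intensities of 110 to 792 on the control array, and the part of this signal in the results was not tested. All arrays lay on 1 slide in 1 scan, so position on the slide and treatment cannot be told apart.

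More SR splicing factor probes were higher than lower after either agent. With cantharidin, 11 of the 19 probes were at least 1.5-fold higher and 3 were lower, and with okadaic acid 11 were higher and 2 were lower. Among all probes compared, 26.4% were higher and 33.0% lower with cantharidin, and 26.5% were higher and 27.7% lower with okadaic acid. The median log2 difference of the member probes was 0.71 with cantharidin, beside -0.17 over all probes, and 0.85 with okadaic acid, beside -0.0059 over all probes. Probes of the same gene are not independent, and both comparisons use the same control array, so a low or high value on that array enters both. The members were chosen with earlier results of these data known, so these counts and medians are a description only. Without scaling between arrays, 23.8% of all probes were higher and 38.3% lower with cantharidin, and the member counts were 9 higher and 5 lower. With okadaic acid 35.0% of all probes were then higher and 21.2% lower, and the member counts were 14 higher and 1 lower.

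**Figure D1:**
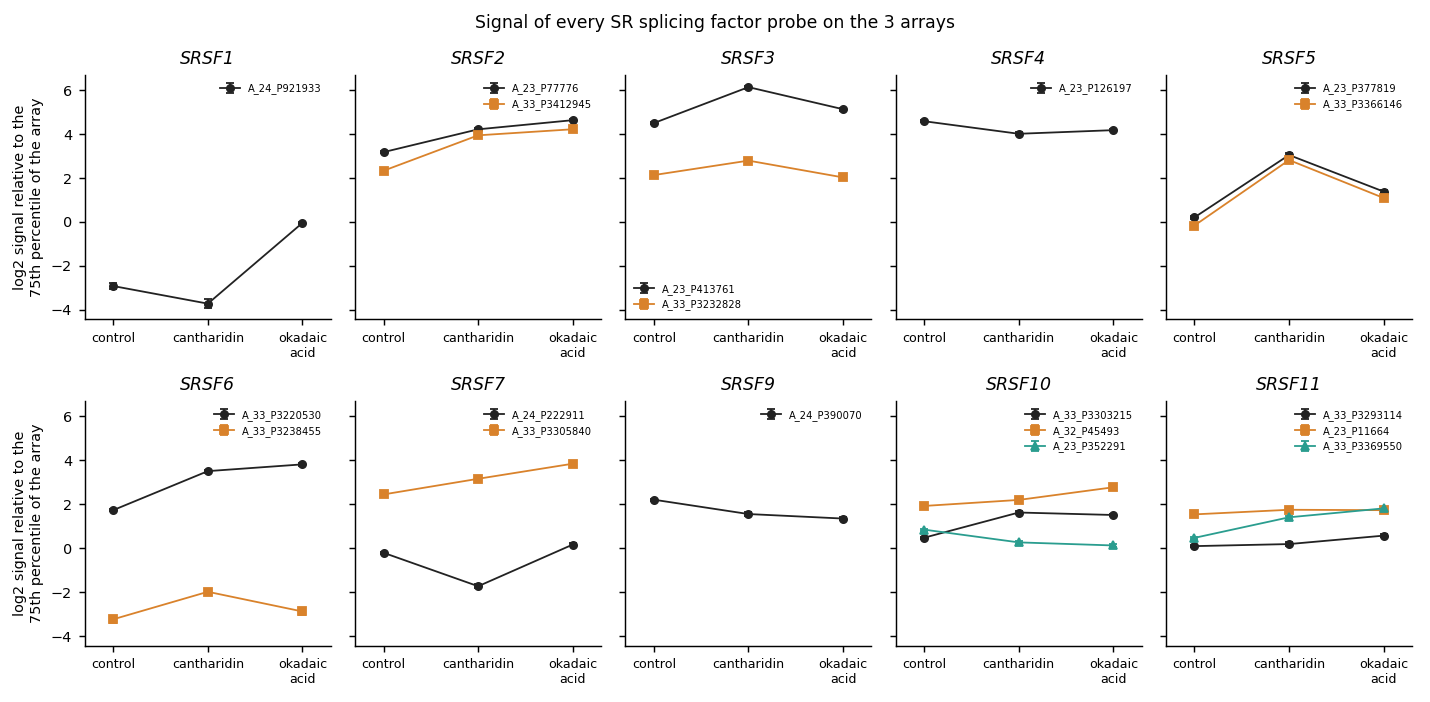
Signal of the 19 SR splicing factor probes on the 3 arrays, as log2 relative to the 75th percentile of the array. Bars show the spot noise. The SRSF2 and SRSF5 probes and the coding SRSF6 probe were at least 1.5-fold higher on both treated arrays. So was 1 probe each of SRSF3, SRSF7, SRSF10 and SRSF11. SRSF1 was lowest with cantharidin and highest with okadaic acid. Vertical distances between probes are no comparison of abundance.

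SRSF5, also known as SRp40, an SR protein with a pair of RNA recognition motifs, had the largest rise with cantharidin among the members. Its probe A_23_P377819 read 906 on the control array, 5893 with cantharidin and 2442 with okadaic acid. Its probe A_33_P3366146, annotated to the same accession (NM_001039465), read 701, 5029 and 1997 in the same order. Both probes were lowest in control and highest with cantharidin, with okadaic acid between. The rises were 7.16-fold (log2 2.84 ± 0.091, spot noise SD) and 7.90-fold (2.98 ± 0.091) with cantharidin. With okadaic acid they were 2.26-fold (1.17 ± 0.076) and 2.39-fold (1.25 ± 0.075). The probes differed from each other by 0.14 ± 0.13 log2 units with cantharidin and by 0.080 ± 0.11 with okadaic acid, about the size of spot noise.

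SRSF6, or SRp55, rose with both agents on the probe annotated to its coding transcript. The probe A_33_P3220530 (NM_006275) read 2613 in control, 8126 with cantharidin and 13209 with okadaic acid. These were rises of 3.42-fold (log2 1.78 ± 0.084) and 4.24-fold (2.08 ± 0.070). Both treated arrays thus stood above control, and the gap between them was inside 1.5-fold. A second probe, A_33_P3238455, is annotated to NR_034009, an accession whose prefix RefSeq uses for non-coding transcripts, and it read 83.5, 181 and 128. Its rise with cantharidin was 2.38-fold (1.25 ± 0.20), and with okadaic acid its difference was 0.36 ± 0.22, inside the threshold (0.61 without scaling, past it). This probe was dim, at 2.39, 8.26 and 2.20 times the lowest signal called well above background on the respective array. The change of the coding probe, named so by its annotation alone, exceeded that of the non-coding one by 0.52 ± 0.21 log2 units with cantharidin and by 1.73 ± 0.23 with okadaic acid. Scaling between arrays cancels in these gaps.

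SRSF2, or SC35, rose on both of its probes. A_23_P77776 read 7100 in control, 13252 with cantharidin and 23234 with okadaic acid, and A_33_P3412945 read 3948, 10966 and 17445. Both are annotated to NM_003016, and both were lowest in control and highest with okadaic acid. The rises with cantharidin were 2.05-fold (log2 1.04 ± 0.083) and 3.06-fold (1.61 ± 0.082), and with okadaic acid 2.74-fold (1.46 ± 0.067) and 3.70-fold (1.89 ± 0.067). The second probe moved further by 0.57 ± 0.12 log2 units with cantharidin and by 0.43 ± 0.095 with okadaic acid.

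SRSF3 and SRSF7 are the SR proteins best known as adaptors for the mRNA export receptor NXF1. SRSF3, the smallest of the family, had the bright probe A_23_P413761, which read 17747 in control, 50133 with cantharidin and 32802 with okadaic acid. It was highest with cantharidin, where the rise was 3.11-fold (log2 1.64 ± 0.077), while that with okadaic acid was 1.55-fold (0.63 ± 0.071). The latter lay close to the threshold and was 0.51 when the arrays were scaled to their medians, which ends the call. The other probe for the same accession (NM_003017), A_33_P3232828, read 3445, 4938 and 3819. After scaling it rose 1.58-fold with cantharidin (0.66 ± 0.087, and 0.52 without scaling). With okadaic acid it stood at -0.11 ± 0.068 after scaling and at 0.15 without. The 2 SRSF3 probes differed in their change by 0.98 ± 0.12 log2 units with cantharidin and by 0.74 ± 0.098 with okadaic acid.

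The probes of SRSF7, or 9G8, which also holds a zinc knuckle, moved in opposite directions with cantharidin. A_24_P222911, annotated to NM_001031684, read 681 in control, 215 with cantharidin and 1054 with okadaic acid. A_33_P3305840, annotated to NM_001195446, read 4289, 6382 and 13489. With cantharidin the first was 2.87-fold lower (log2 -1.52 ± 0.10) and the second 1.64-fold higher (0.71 ± 0.086; 0.57 without scaling). With okadaic acid the first stood at 0.37 ± 0.080, inside the threshold (0.63 without scaling, past it), and the second rose 2.64-fold (1.40 ± 0.069). The gap between the probes was -2.23 ± 0.14 log2 units with cantharidin, 16.5 times its spot noise and the widest within any member, and -1.02 ± 0.11 with okadaic acid.

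SRSF10, or SRp38, is known to repress splicing when it is dephosphorylated in heat shock and mitosis, and its 3 probes are annotated to 3 accessions. A_33_P3303215 (NM_001191009) read 1094 in control, 2203 with cantharidin and 2677 with okadaic acid, rises of 2.21-fold (log2 1.15 ± 0.094) and 2.05-fold (1.03 ± 0.076). A_32_P45493 (NM_006625) read 2982, 3276 and 6417. It stood at 0.27 ± 0.089 with cantharidin and rose 1.80-fold with okadaic acid (0.85 ± 0.067). A_23_P352291 (NM_054016) went the other way, at 1413, 859 and 1024. Its difference with cantharidin was -0.581 ± 0.090, just inside the 1.5-fold limit (-0.72 without scaling, past it), and with okadaic acid it was 1.65-fold lower (-0.72 ± 0.078; -0.47 without scaling). The first and the last of these probes were 1.73 ± 0.13 log2 units apart with cantharidin and 1.76 ± 0.11 with okadaic acid.

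**Figure D2:**
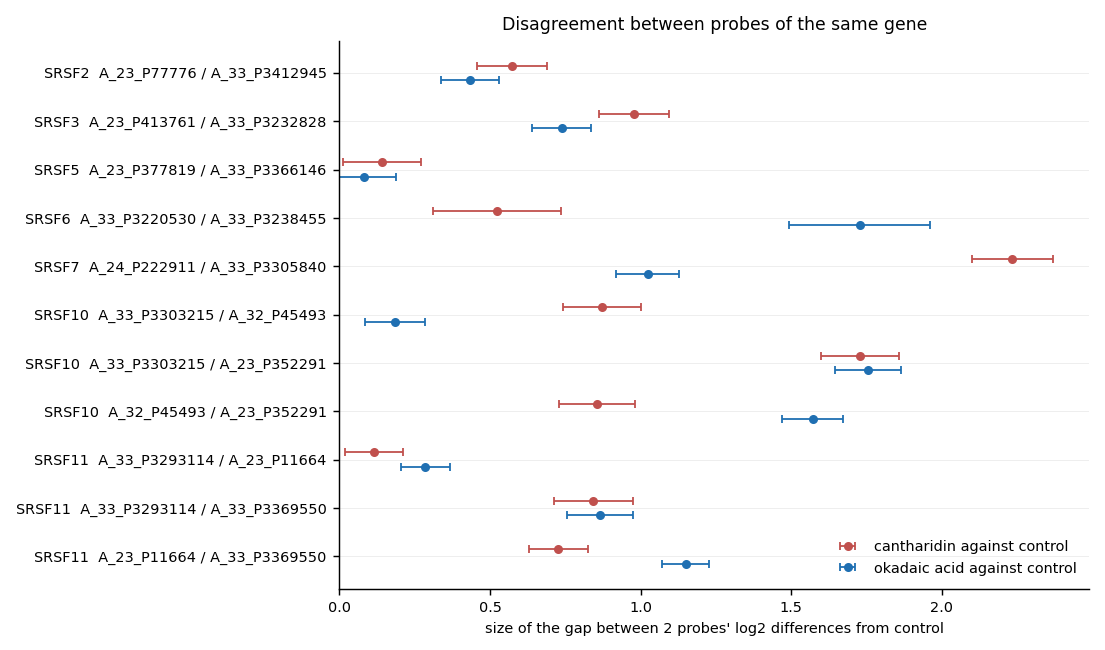
Absolute gap between the log2 differences from control of each pair of probes of the same SR splicing factor, for cantharidin and okadaic acid. Bars show the spot noise. The SRSF5 pair lay near 0, while the SRSF7 pair reached 2.23 with cantharidin and the outer SRSF10 pair 1.73 and 1.76.

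SRSF11, or p54, had 3 probes and a rise on 1 of them. A_33_P3369550 (NM_004768) read 1089 in control, 1894 with cantharidin and 3295 with okadaic acid, rises of 1.91-fold (log2 0.94 ± 0.093) and 2.53-fold (1.34 ± 0.075). A_23_P11664, annotated to the same accession, was printed in 10 spots, the only member probe with repeated spots. Its spots ranged from 2023 to 2485 in control, from 2186 to 2590 with cantharidin and from 2953 to 3353 with okadaic acid. Scaled, its differences were 0.21 ± 0.029 and 0.19 ± 0.022, so this probe stayed inside 1.5-fold with both agents. These errors are for a mean of 9 or 10 spots and come from the probes of like brightness. The log2 SD of its own spots was 0.095 in control, 0.077 with cantharidin and 0.069 with okadaic acid. In control and with okadaic acid this exceeded the SD behind the errors, so they are too small for this probe. A_33_P3293114 (NM_001190987) read 840, 814 and 1396, with scaled differences of 0.094 ± 0.092 and 0.48 ± 0.079, the latter 0.73 and past the threshold without scaling. The probes for NM_004768 lay 0.73 ± 0.098 log2 units apart with cantharidin and 1.15 ± 0.078 apart with okadaic acid.

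SRSF1, or ASF/SF2, the founding member of the family, was measured by a single dim probe, A_24_P921933 (NM_001078166). It read 104 in control, 54.3 with cantharidin and 911 with okadaic acid, or 2.97, 2.48 and 15.7 times the lowest signal called well above background. The cantharidin array was thus the lowest and the okadaic acid array the highest. With okadaic acid the rise was 7.33-fold (log2 2.87 ± 0.14), the largest among the member probes, and with cantharidin the value was 1.74-fold lower (-0.80 ± 0.25). The fall was -0.45, inside the threshold, after another background correction (normexp), which left the rise at 2.10. Which SRSF1 transcripts this probe binds was not tested, so its values may not stand for the gene as a whole.

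SRSF9 and SRSF4 also had 1 probe each. SRSF9, or SRp30c, read 3633 in control, 2099 with cantharidin and 2391 with okadaic acid, and both treated arrays lay below control. After scaling it was 1.57-fold lower with cantharidin (log2 -0.65 ± 0.088) and 1.81-fold lower with okadaic acid (-0.86 ± 0.070). The cantharidin value sat at -0.58, just inside the limit, when the percentile was taken over probes detected on all arrays. SRSF4, or SRp75, read 18828, 11510 and 16959. Its differences of -0.57 ± 0.082 and -0.41 ± 0.066 were inside the threshold, though the first passed it without scaling (-0.71) and with normexp (-0.59).

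**Figure D3:**
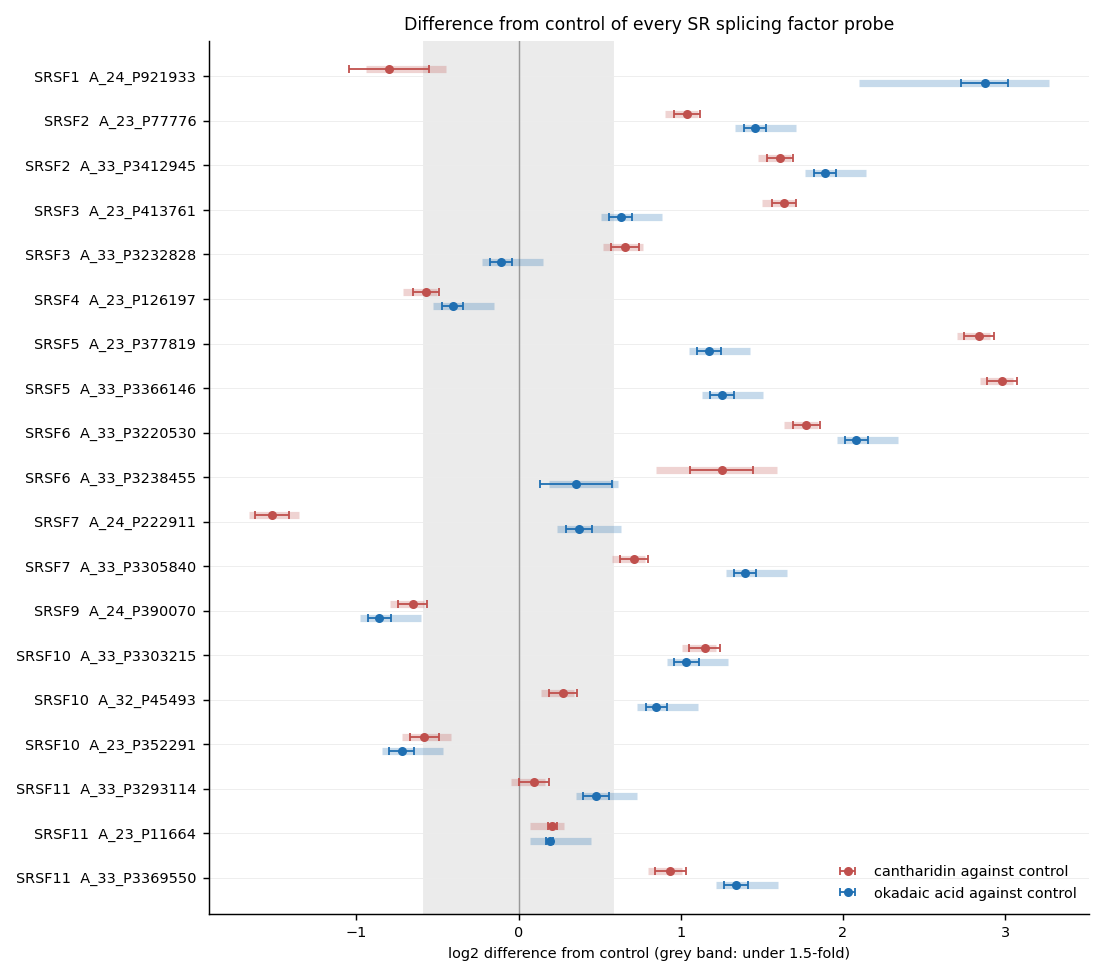
Log2 difference from control of the 19 SR splicing factor probes for cantharidin and okadaic acid. Thin bars show the spot noise, pale bars the range over 8 alternative processings and a grey band differences under 1.5-fold. The SRSF5 probes lay at 2.84 and 2.98 with cantharidin and the SRSF1 probe at 2.87 with okadaic acid, and SRSF9 lay below the band with both agents.

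The treated arrays were also set against each other, which leaves the control array out. Okadaic acid was at least 1.5-fold above cantharidin in 3 member probes and below it in 5, where 28.0% and 22.5% of all probes were. The median over the member probes was 0.17, beside 0.11 over all probes. Higher with okadaic acid were the SRSF1 probe, by 12.8-fold (log2 3.68 ± 0.22), and both SRSF7 probes, by 3.72-fold (1.90 ± 0.11) for NM_001031684 and 1.61-fold (0.69 ± 0.093) for NM_001195446. Lower with okadaic acid were the probes of SRSF5 and SRSF3 and the non-coding SRSF6 probe. For SRSF5 the differences were -1.66 ± 0.092 and -1.73 ± 0.092, for SRSF3 they were -1.01 ± 0.089 and -0.76 ± 0.091, and for SRSF6 the difference was -0.90 ± 0.18. The other 11 probes, among them those of SRSF2, SRSF4, SRSF9, SRSF10 and SRSF11, did not reach 1.5-fold, which with 1 array each does not show that the agents act alike. This comparison leaned most on scaling. Without it, 46.3% of all probes were higher and 14.1% lower with okadaic acid, and the member counts were 9 and 3. The calls of the second SRSF3 probe (-0.37) and the non-coding SRSF6 probe (-0.50) were then lost, and that of SRSF7 for NM_001195446 was lost when arrays were scaled to their medians (0.53).

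**Figure D4:**
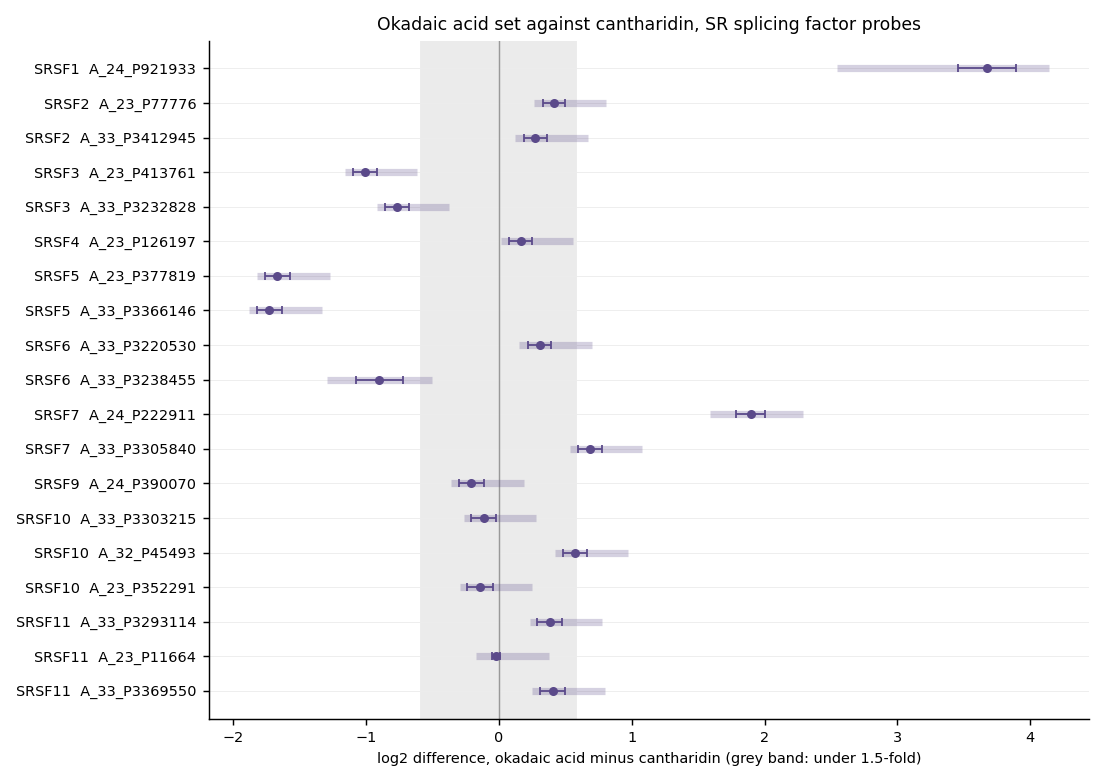
Log2 difference of okadaic acid minus cantharidin for the 19 SR splicing factor probes. Thin bars show the spot noise, pale bars the range over 8 alternative processings and a grey band differences under 1.5-fold. SRSF1 lay at 3.68 and the first SRSF7 probe at 1.90, while the SRSF5 probes lay at -1.66 and -1.73.

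For the 7 members with several probes, the spread of changes within a gene was set beside that of all genes with more than 1 detected probe. The spread is the range from the lowest to the highest probe. A range tends to widen with the number of probes, which was not matched between the members and all genes. The median range was 0.84 log2 units with cantharidin in the members and 0.60 in 3073 genes, and 1.02 with okadaic acid in the members and 0.62 in 2892 genes. Ranges over 1 log2 unit were found in 2 of the 7 members with cantharidin (SRSF7 and SRSF10) and in 4 with okadaic acid (SRSF6, SRSF7, SRSF10 and SRSF11), where 34.3% and 30.8% of the genes had one. Between the treated arrays the members' median range was 0.42, below the 0.55 of 2917 genes, and 2 of the 7 members were over 1 (SRSF6 and SRSF7), beside 26.5% of the genes. Probes that disagree can bind different transcripts or another gene, and neither was tested, since the files used here give no probe sequences.

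The promoters of the members were read from RefSeq (GRCh38.p14), from 250 bases before the start to 50 after it, and 9 of the 10 members had an entry, SRSF2 being the exception. SRSF7 and SRSF11 had more than 1 start, which gave 11 promoters. They were searched on both strands for the Sp1 box GGGCGG, the CCAAT box, the TATA box TATAAA, the E-box CACGTG, the AP-1 site TGACTCA and the cAMP response element TGACGTCA, and no motif contains another. GGGCGG stood in 5 of the 11 promoters (SRSF4, SRSF6, both of SRSF7 and 1 of SRSF11) and in 44.95% of all 35116 promoters of the table. CCAAT was found in 1 of the 11 (SRSF3) and in 34.61% of all promoters. TATAAA was found in 3 of the 11 (SRSF3, 1 of SRSF7 and 1 of SRSF11) and in 11.53% of all promoters. The E-box, the AP-1 site and the cAMP response element were in none of the 11, and in 7.256%, 4.949% and 1.848% of all promoters. A match is a description of the letters only. The promoters below are examples. They are those of SRSF5, SRSF6 and SRSF3, whose brightest probes rose with both agents, and of SRSF9, whose probe fell with both. The brightest SRSF7 probe also rose with both, by 0.71 and 1.40 log2 units, and its promoters are not printed. Capitals mark the motif matches on either strand, and SRSF5 and SRSF9 hold none.
SRSF5 (chr14:69766892-69767191, + strand): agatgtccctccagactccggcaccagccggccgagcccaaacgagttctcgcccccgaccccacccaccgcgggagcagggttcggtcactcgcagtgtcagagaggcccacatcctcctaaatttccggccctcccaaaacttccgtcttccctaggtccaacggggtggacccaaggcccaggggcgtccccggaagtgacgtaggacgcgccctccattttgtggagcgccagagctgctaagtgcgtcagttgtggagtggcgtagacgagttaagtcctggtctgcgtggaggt
SRSF6 (chr20:43457646-43457945, + strand): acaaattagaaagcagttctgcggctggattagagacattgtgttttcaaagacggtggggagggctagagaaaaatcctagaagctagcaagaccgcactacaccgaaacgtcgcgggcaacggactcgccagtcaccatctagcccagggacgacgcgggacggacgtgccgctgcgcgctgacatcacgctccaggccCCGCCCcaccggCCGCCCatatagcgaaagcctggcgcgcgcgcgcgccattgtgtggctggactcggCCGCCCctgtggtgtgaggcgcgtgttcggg
SRSF3 (chr6:36594112-36594411, + strand): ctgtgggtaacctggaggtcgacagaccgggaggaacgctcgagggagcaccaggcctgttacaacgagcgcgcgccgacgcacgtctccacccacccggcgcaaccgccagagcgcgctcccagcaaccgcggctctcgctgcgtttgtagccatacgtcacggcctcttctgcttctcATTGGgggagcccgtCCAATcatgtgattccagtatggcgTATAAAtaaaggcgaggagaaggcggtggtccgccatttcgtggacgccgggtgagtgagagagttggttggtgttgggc
SRSF9 (chr12:120469699-120469998, - strand): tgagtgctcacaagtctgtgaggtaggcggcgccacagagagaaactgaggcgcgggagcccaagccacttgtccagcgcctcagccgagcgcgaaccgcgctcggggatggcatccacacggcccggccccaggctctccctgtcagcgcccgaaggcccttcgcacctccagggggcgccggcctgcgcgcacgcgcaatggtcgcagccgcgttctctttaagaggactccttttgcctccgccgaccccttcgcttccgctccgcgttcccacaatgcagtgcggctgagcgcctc

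Other splicing genes were compared gene by gene, by the brightest probe of each. With cantharidin 27.5% of all genes compared were higher and 34.1% lower, and with okadaic acid 28.1% and 28.8%. Counted this way the SR splicing factors had 5 genes higher and 2 lower with cantharidin, and 7 higher and 1 lower with okadaic acid.

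The kinases that phosphorylate SR proteins were mostly lower or little moved. Of 7 measured genes 1 was higher and 4 were lower with cantharidin (median log2 difference -0.77), and 2 were higher and 1 was lower with okadaic acid (-0.36). CLK2 fell by 2.35 and 1.68 log2 units with cantharidin and okadaic acid, and SRPK1 rose by 0.63 and 0.82. SRPK3 and PRPF4B had no matched probe. Among 17 SR-like and SR-related proteins compared, 8 were higher and 2 lower with cantharidin (median 0.33), and 7 were higher and none lower with okadaic acid (0.23). Among them LUC7L3, a U1-associated protein, rose by 1.74 and 2.29, and the brightest probe of LUC7L by 1.63 and 0.90. The 2 probes of LUC7L ran from 1.63 to 2.00 with cantharidin and from 0.63 to 0.90 with okadaic acid. The brightest probe of SON, a large speckle protein, rose by 2.26 and 2.05, but its 3 probes ran from 0.50 to 2.26 with cantharidin and from -0.16 to 2.05 with okadaic acid.

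The hnRNP proteins, RNA-binding proteins that often oppose SR proteins at splice sites, were more often lower. Of 24 genes 2 were higher and 13 lower with cantharidin (median -0.62), and 4 were higher and 11 lower with okadaic acid (-0.47). HNRNPA0 fell by 2.25 and 1.61 log2 units and HNRNPH2 fell by 2.14 and 1.23. The brightest probe of HNRNPA3 fell by 2.63 and 1.26, while its 5 probes ran from -3.10 to 0.96 with cantharidin and from -2.61 to 0.53 with okadaic acid. Of 25 core factors of the U1 and U2 particles 2 were higher and 9 lower with cantharidin (median -0.034), and 6 were higher and 7 lower with okadaic acid (median -0.13). With the percentile over probes detected on all arrays the medians were 0.036 with cantharidin and -0.056 with okadaic acid. Without scaling they were -0.17 and 0.12. SF3B3 fell by 1.80 and 1.76 and SNRPD2 fell by 1.05 and 1.28, while SF1, which binds the branch point, rose by 1.36 and 0.91.

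Nonsense-mediated decay factors, which degrade transcripts that include a poison exon, were more often higher. Of 10 genes 5 were higher and 2 lower with cantharidin (median 0.61), and 6 were higher and 2 lower with okadaic acid (0.65). SMG8 rose by 1.11 and 1.73 log2 units. SMG1, a kinase with near-identical copies in the genome that its probes may also bind, rose by 1.27 and 1.14 on its brightest probe. Its 6 probes ran from 1.27 to 4.54 with cantharidin and from 0.80 to 2.76 with okadaic acid. UPF2 rose by 2.10 and 2.83 on its brightest probe, but its 4 detected probes ran from -1.11 to 2.10 with cantharidin and from -0.75 to 2.83 with okadaic acid. Of 8 genes for import, export and dephosphorylation 4 were higher and 2 lower with each agent (medians 0.48 and 0.40). NXF1, the mRNA export receptor that SRSF3 and SRSF7 recruit, read 328 in control, 3179 with cantharidin and 4317 with okadaic acid, rises of 3.41 and 3.46 log2 units. TNPO3, which carries SR proteins into the nucleus, rose by 1.66 and 1.57 on its brightest probe. Its 2 probes ran from 0.88 to 1.66 with cantharidin and from 1.57 to 2.92 with okadaic acid. The PP1 catalytic subunit PPP1CC fell by 1.36 and 1.80 on its brightest probe. Its 2 probes ran from -1.36 to -1.20 and from -1.80 to -1.29. The other phosphatase subunits of the list went both ways. PPP1CB stood at -1.41 and -0.65 and PPP1CA at 0.24 and -0.26 with cantharidin and okadaic acid. The PP2A catalytic subunits PPP2CA and PPP2CB stood at 0.72 and 0.59 and at 1.06 and 0.20.

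**Figure D5:**
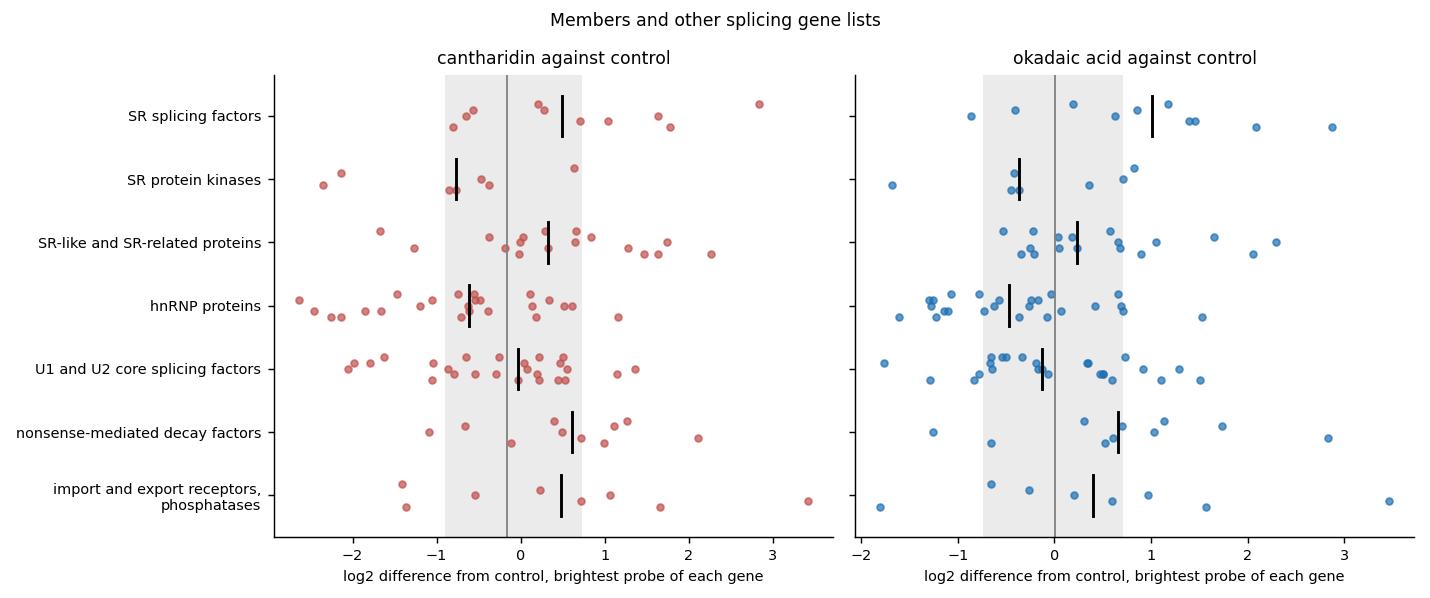
Log2 difference from control of each gene, by its brightest probe, in the SR splicing factors and 6 other lists of splicing genes, with a black bar for the median of the list, a grey line for the median of all genes compared and a grey band for their middle 50%. The medians of the SR splicing factors were 0.49 with cantharidin and 1.01 with okadaic acid, and those of the hnRNP proteins -0.62 and -0.47.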

How the data were processed

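Gene expression was measured in PANC-1 cells on 3 Agilent 1-colour arrays (Cy3-labelled total RNA), 1 per group, with groups taken from the sample labels. The deposited scanner files hold spot intensity values that the authors obtained with Feature Extraction 11.0.1.1, which had subtracted background within the array, and per the file headers the probes were annotated on hg19. Other deposited columns flagged outlier spots, saturation and signal above background, each as 0 or 1. A deposited table of normalized log2 values served as an alternative. How it was made is not given in the sources used here; each of its columns correlated at r = 0.998 or more with the log2 intensities of the matching array (30845 probes) and at 0.937 or less with the others, and column medians were 7.74 to 7.75, so its scale is log2 while its centring method is unknown.

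The log2 intensity of spots without outlier flags was averaged per probe and the 75th percentile of the array was subtracted. A probe was well above background when most of its spots were flagged so. Differences were called at 1.5-fold, the study's own threshold, with no test, since each group had 1 array. Spot noise came from the median SD among the 999 probes with 10 spots, taken within 0.5 log2 units of a probe's brightness. The number of arrays limits the precision. Probe accessions were matched without version to RefSeq (GRCh38.p14). Genes of several probes were given by every probe (members) or by the brightest probe over the 3 arrays (other lists). Named were all members and, of each other list, at most 3 genes past 1.5-fold on both treated arrays with the largest smaller change. Outside this rule SRSF8, SRSF12 and the other listed PP1 and PP2A subunits were also named. The members and lists were chosen with earlier results of these data known. Alternatives were normexp (offset 50, on the median spot signal), other scalings, other filters, a 2-fold threshold, counts by gene and the deposited table; those for the other gene lists were chosen after seeing the data. The calculation was tested on simulated data. Tools were Python 3.11.15, numpy 2.4.6, pandas 2.3.3, matplotlib 3.10.9, R 4.3.3 and limma 3.58.1.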

Additional observations from a re-analysis of the deposited data

Results flagged for a closer look

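The SRSF1 probe A_24_P921933 was past 1.5-fold in opposite directions with the 2 agents, at -0.80 on the log2 scale with cantharidin and at 2.87 with okadaic acid. The cantharidin value was -0.45, inside the threshold, under normexp background correction, so the opposite calls do not hold there. Whether the effects differ was not tested, since each group had 1 array, and both values use the same control array. No other member probe passed the threshold in both directions.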

How the results depend on the processing

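Each of the 57 member probe differences was recomputed under 8 alternatives. Of the 35 that were called, 9 lost the call under at least 1 alternative and 0 changed sign, and 11 of the others gained one. Without scaling, probes lower with cantharidin rose in number to 5 and those lower with okadaic acid came to 1, okadaic acid was above cantharidin in 9 probes and below it in 3, and the medians were 0.57 for cantharidin, 1.11 for okadaic acid and 0.56 for okadaic acid against cantharidin. Scaling to the median gave 0.73 for okadaic acid and 0.014 for okadaic acid against cantharidin, and the percentile over probes detected on all arrays gave 0.93 for okadaic acid. At 2-fold, 1 probe was lower with cantharidin and 0 with okadaic acid, and 3 were lower with okadaic acid than with cantharidin. The share of all probes past 2-fold is not given here, so these counts are a description only. By the brightest probe of each of the 10 genes, 5 were higher and 2 lower with cantharidin (median 0.49). With okadaic acid 7 were higher and 1 lower (median 1.01). Against cantharidin, 2 were higher and 2 lower with okadaic acid, where 4781 and 3616 of all 16200 genes compared were. When the probes of each gene were summarised by their median, 6 were higher with cantharidin (median 0.86), 7 were higher and 1 lower with okadaic acid (median 1.05), and 2 were lower with okadaic acid than with cantharidin (median over all members 0.027). The shares of all genes under this summary are not given here. Fewer features were counted by gene; for the other changes the cause was not tested beyond the shift that scaling gives to all probes, whose median ran over the scalings from -0.30 to -0.096 with cantharidin and from -0.13 to 0.25 with okadaic acid. Of the other lists, the U1 and U2 core factors reversed their median, to 0.036 with cantharidin under the percentile over detected probes and to 0.12 with okadaic acid without scaling. The remaining alternatives left the member counts within 1.5 times. With 1 array per group no array could be left out, and dim probes, SRSF1 and the non-coding SRSF6 probe, had the widest spot noise.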
